A study of Drosophila melanogaster with 9 samples.

Results

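The expression of 7440 genes was compared between the wing pouch of Drosophila melanogaster larvae of the genotype CR32027-IR2 and that of OreR larvae. CR32027-IR2 larvae carried a UAS hairpin transgene (VDRC 103512) against CR32027, a long noncoding RNA. OreR is a wild-type strain. In each genotype, fathers of the named stock were crossed to virgin mothers of the driver stock Bloomington 25706 (w1118, Bx-GAL4; UAS-dicer2). All larvae therefore carried Bx-GAL4 (also known as MS1096), which drives the hairpin in the wing pouch, and UAS-dicer2, which supplies extra Dicer-2 to process it. Dcr-2 itself differed between the genotypes, with 501, 511 and 594 RPKM in CR32027-IR2 against 919, 902 and 756 RPKM in OreR (log2 change -0.68 ± 0.09, SE, limma, adjusted p = 0.0067), and its part in the results was not tested. Male larvae were raised at 25 °C to the wandering stage of the third instar, 30 wing discs were dissected, and nota were removed. There were 3 RNA-seq libraries for each of the 2 genotypes, from a series of 9 libraries. Genes were kept where the mean over the 6 libraries was at least 1 RPKM (read numbers corrected for the length of the gene and for sequencing depth), which 7440 of 15682 genes in the table met. Another 4684 genes were detected below that level and 3558 were listed at 0 in all 6 libraries. CG32354, at a mean of 1.00 RPKM, was just inside the limit, and snoRNA:Psi28S-1135b, at 0.997 RPKM, was just outside it.

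The wing pouch is the epithelial field of the larval wing disc that becomes the wing blade. Its cells divide through most of larval life, hold their shape with an actin cortex, and turn over signalling receptors through endosomes. At the end of larval life they prepare to secrete cuticle. The comparison asks how the pouch transcriptome differs when a hairpin against CR32027 is expressed there. The hairpin stock and OreR are different stocks, so the hairpin and any other difference between these stocks cannot be told apart in this pair of genotypes. In pieces of tissue, fewer cells of a type and less RNA per cell cannot be told apart either.

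Libraries held 36512315, 29585549 and 25070344 reads in CR32027-IR2 and 25435055, 27333741 and 34333230 reads in OreR, as recovered from the steps between low values. Across genes, as a description, Pearson correlations between libraries were 0.991 to 0.995 inside each genotype and 0.981 to 0.987 between genotypes. RNA was extracted in triplicate, per the labels, which name no separate crosses, and the spread behind the p-values may therefore be technical. Of 12 measured wing pouch markers, which include nub, vg, salm and sd, 0 were called, and their summed level was 117 to 128 RPKM in CR32027-IR2 and 124 to 134 RPKM in OreR. By the same limma test, 3 of these 12 had an unadjusted p under 0.05, all lower in CR32027-IR2, beside 23.1% of all genes. The groups did not overlap in 4 of the 12, again all lower, beside 28.3% of all genes. Of the 12, 4 had a log2 change above 0.

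The targeted RNA was lower in CR32027-IR2. CR32027 (lncRNA:CR32027, FBgn0052027; chromosome arm 3L, 18841579 to 18842786, BDGP6) had 0.408, 1.12 and 1.19 RPKM in the CR32027-IR2 libraries and 2.38, 3.3 and 2.53 RPKM in the OreR libraries. The groups did not overlap, and CR32027-IR2 kept 33.1% of the OreR mean, on 94 against 287 reads. The log2 change was -0.99 ± 0.18 (SE, n = 3 libraries each; limma, adjusted p = 0.0229), and an exact permutation test, two-sided, gave p = 0.1, which is the minimum for 3 and 3 libraries. For the CR32027 level, leaving out OreR replicate 2 gave an adjusted p of 0.0744 (limma), leaving out OreR replicate 3 gave 0.0516, and leaving out CR32027-IR2 replicate 2 gave 0.0504. CR32027 lies inside Indy, a citrate transporter gene on the opposite strand.

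Across the 7440 genes, 545 (7.33%) were called at an adjusted p under 0.05 (limma with an intensity trend, Benjamini-Hochberg adjustment over all 7440). Of these, 282 (3.79%) were higher in CR32027-IR2 and 263 (3.53%) were lower. Most changes were small. Among called genes, 49 higher and 21 lower genes changed by at least 1 on the log2 scale, whereas 147 higher and 181 lower genes changed by under 0.5. Over all genes tested, the log2 change had a median of -0.02. Values of the 3 CR32027-IR2 libraries lay apart from those of the 3 OreR libraries in 2102 genes (28.3%), which included all 545 called genes. An unadjusted p under 0.05 (limma) was found in 1720 genes (23.1%). Calls depended on single libraries: 217 genes (145 higher and 72 lower) also passed with any 1 library left out. The count of calls was 256 without CR32027-IR2 replicate 2, 301 without CR32027-IR2 replicate 3 and 347 or 312 with OreR replicate 1 or 2 omitted. Below, a gene described as called in every leave-out is one of the 217. For other genes that are given with a test, the libraries that decide the call are named.

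**Figure D1:**
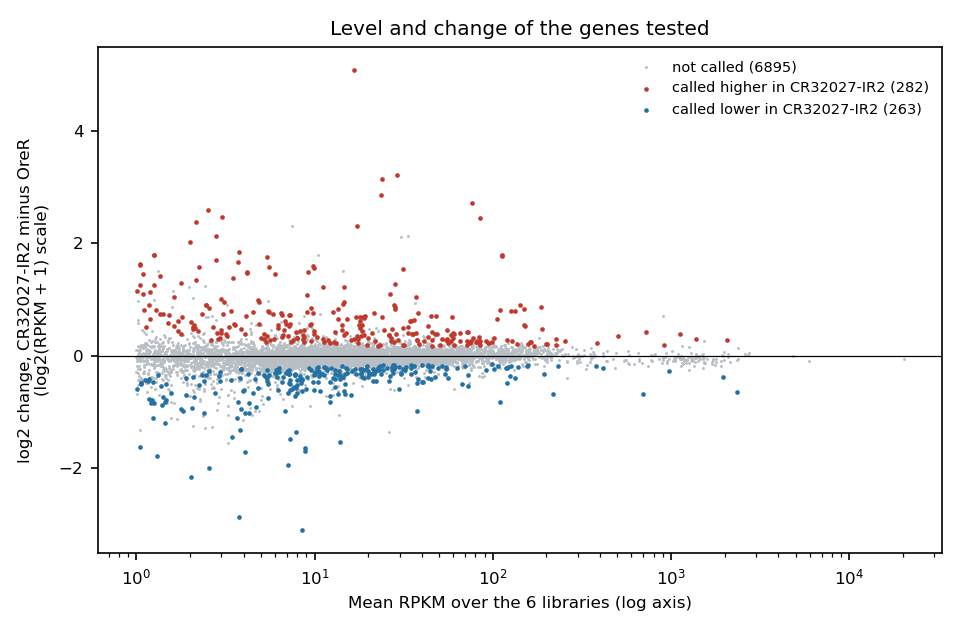
Mean level over the 6 libraries (RPKM, log axis) against the log2 change of CR32027-IR2 minus OreR for the 7440 genes tested, each point a gene. The 282 genes called higher reach larger changes than the 263 called lower, and most called genes of either direction lie within 1 of zero on the log2 scale.

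Genes were sorted into 77 functional classes, which took in 227 of the 545 called genes together with 8 lists of cell type markers, and each class is described by its count of called members beside the shares above. Among classes with at least 20 tested members, 3 had the largest shares of higher members, beside the 3.79% of all genes. These were the ESCRT machinery of the endosome (11 of 20 tested members), chaperones of the heat shock families (12 of 31), and regulators of actin filaments and actomyosin (21 of 63). Of the 12 chaperones, 6 are near-identical Hsp70 copies between which reads may be split. Higher shares than that of all genes were also found for enzymes of the chitin matrix and of tanning (5 of 24) and protease inhibitors (4 of 13). Classes with a larger share of lower members than the 3.53% of all genes included glutathione transferases (6 of 24), cuticle structural proteins (4 of 17), serine, glycine and one-carbon metabolism (3 of 14), long noncoding and antisense RNAs (9 of 55) and snoRNAs (16 of 129). Another 3 of the 17 cuticle proteins were higher, and only these were called in every leave-out. None of the 3 lower genes of serine, glycine and one-carbon metabolism was called in every leave-out. At the other end, 16 classes with 366 tested genes had 0 called members. Of these genes, 39 had an unadjusted p under 0.05 by the same limma test, beside 23.1% of all genes. The ESCRT, chaperone, glutathione transferase, chitin and tanning, cuticle and noncoding RNA classes were drawn up after values had been seen. So were the endocytosis, proteasome, kinesin, respiratory chain, ribosomal protein, lipid phosphate phosphatase and DNA repair classes, among others given below. The ESCRT class was split from a longer list of endosomal genes. The shares of all these classes are descriptions.

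**Figure D2:**
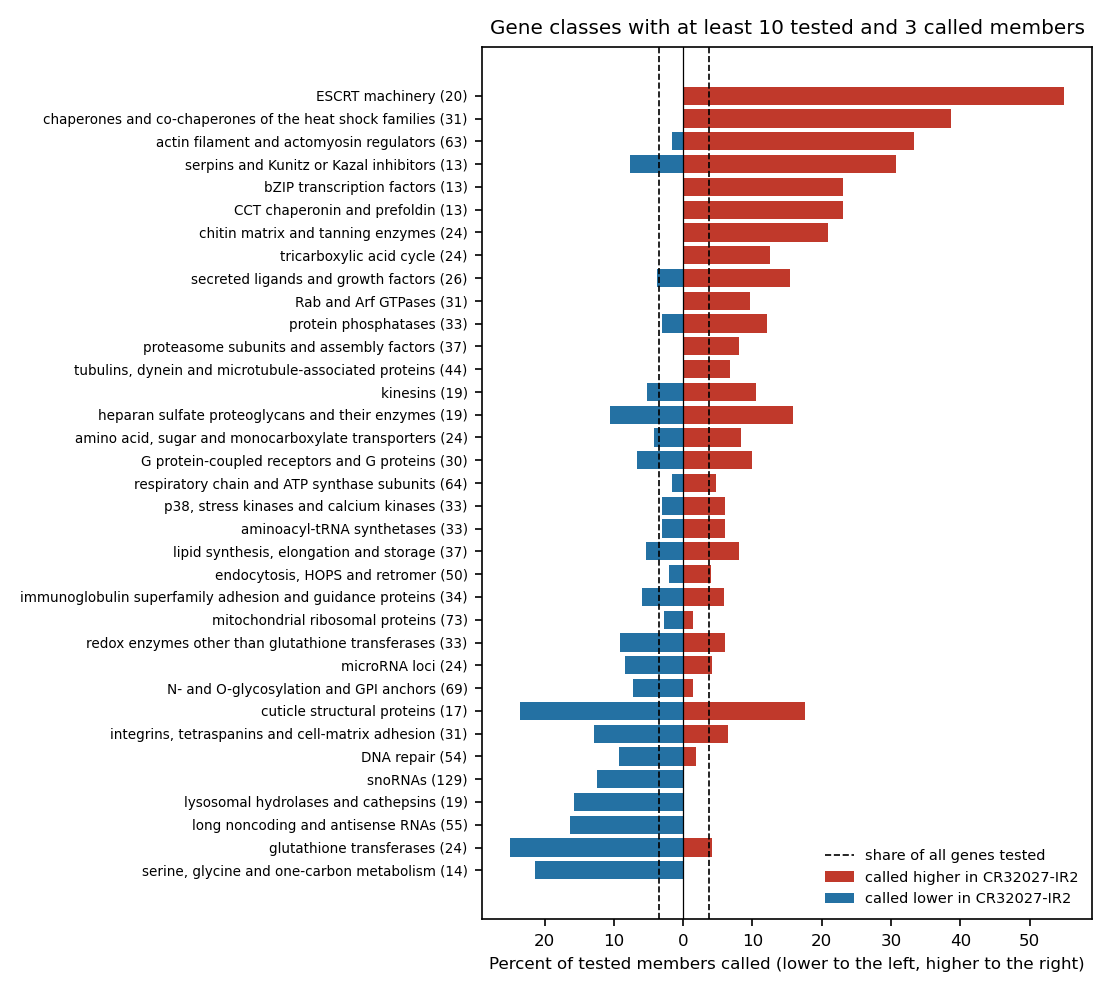
Percent of tested members called higher (right) or lower (left) in CR32027-IR2 for the classes reported here that had at least 10 tested and 3 called members, with the number tested in brackets. Dashed lines mark the shares of all genes tested, 3.79% and 3.53%; the ESCRT, chaperone and actin classes extend farthest to the right.

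Of 63 tested regulators of actin filaments and actomyosin, 21 were higher in CR32027-IR2 and 1 was lower. The largest changes in this class were in Unc-115b and Unc-115a, adjacent genes for actin-binding proteins of the abLIM family. Unc-115b had 61.8, 59.8 and 58.7 RPKM in CR32027-IR2 and 39, 34.6 and 35.5 RPKM in OreR, and its log2 change was 0.71 ± 0.05 (SE; adjusted p = 0.000357, limma). Unc-115a had 24, 23.1 and 23.1 RPKM in CR32027-IR2 and 14.4, 13.8 and 14.3 RPKM in OreR (log2 change 0.68 ± 0.04, limma, adjusted p = 0.000161). In neither gene did the groups overlap. The genomic span of Unc-115b overlaps p24-2 on the same strand, and p24-2, a cargo receptor gene of the early secretory pathway, showed the same change (0.71 ± 0.05), so their reads may not be separable. Of the next genes, ena overlaps lncRNA:CR43399 on the same strand and Myo61F overlaps CG9184 on the opposite strand.

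Further along the class, ena, the Ena/VASP protein that elongates filaments, had 11.8, 11.1 and 11.4 RPKM in CR32027-IR2 against 7.46, 7.30 and 7.90 RPKM in OreR (log2 change 0.54 ± 0.05, limma, adjusted p = 0.00119). The unconventional myosin gene Myo61F averaged 8.63 ± 0.472 RPKM in CR32027-IR2 and 5.67 ± 0.731 RPKM in OreR (SD, n = 3 each), and cib (ciboulot, which binds actin monomers) averaged 219.8 ± 5.67 RPKM in CR32027-IR2 and 158 ± 2.37 RPKM in OreR. All libraries of CR32027-IR2 were above all of OreR for these genes. Arpc1, a subunit of the Arp2/3 complex that nucleates branched filaments, had 83.3, 83.5 and 82.1 RPKM in CR32027-IR2 against 62.1, 60.3 and 63.5 RPKM in OreR (log2 change 0.42 ± 0.04, limma, adjusted p = 0.000791). These 6 genes, with Arpc3A (0.38), twf (twinfilin, which binds monomers; 0.37) and the abundant cytoplasmic actin gene Act5C (0.29), were called in every leave-out. The last 3 were named after their values were seen, as were those of the next sentence other than shot and msn. The other members called higher were Vinc, shot, flr, msn, sqh, Arpc5, Fim, cpa, sn, tsr, chic and Act42A, with log2 changes of 0.20 to 0.36, and each lost its call without at least 1 library. Together these 21 genes cover filament subunits, Arp2/3 subunits, monomer-binding proteins (cib, twf, chic for profilin, tsr for cofilin), bundling and capping proteins (Fim, sn, cpa) and the myosin light chain sqh.

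Of the Arp2/3 subunits, Arp3 (0.16), Arpc2 (0.12) and Arp2 (0.01) were not called, and neither were the SCAR complex members SCAR (0.04), Abi (-0.03), Cyfip (-0.01) and Hem (0.00). The only member called lower was wash, an Arp2/3 activator of endosomes, with 11, 11.8 and 11.3 RPKM in CR32027-IR2 against 15, 13.7 and 14.9 RPKM in OreR. Its groups did not overlap, but its adjusted p (limma) was 0.0519 without CR32027-IR2 replicate 3. The class median was 0.12, against -0.02 over all genes. The count of higher members was 11 without CR32027-IR2 replicate 1, 12 without CR32027-IR2 replicate 2, 12 without CR32027-IR2 replicate 3 and 13 without OreR replicate 2.

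**Figure D3:**
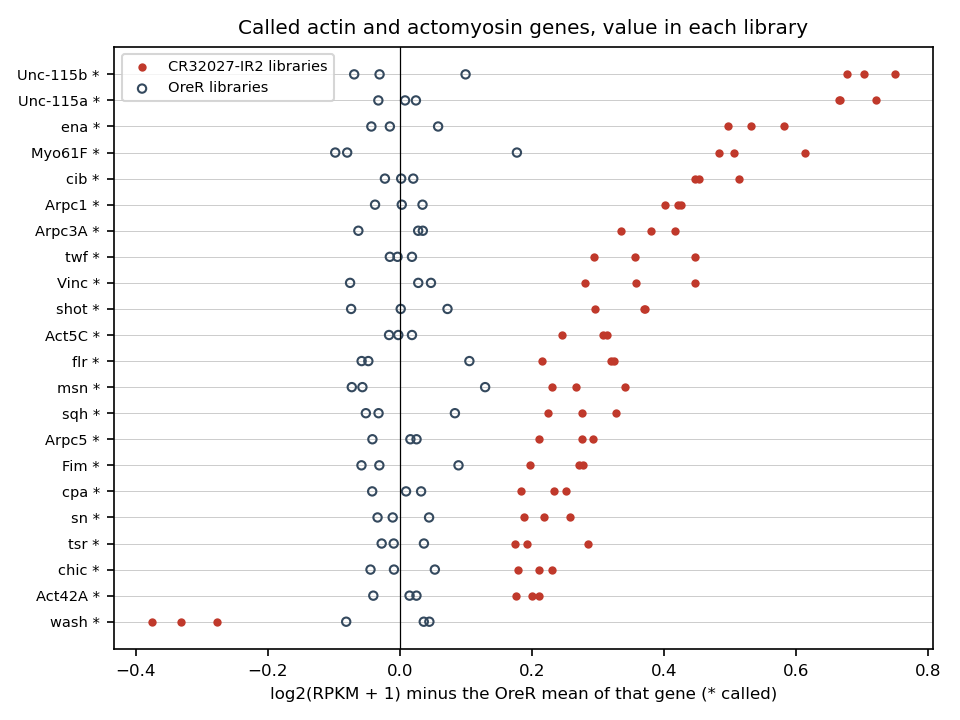
Value of each called actin or actomyosin gene in each library, as log2(RPKM + 1) minus the OreR mean of that gene; filled points are CR32027-IR2 libraries and open circles OreR libraries. The groups are apart in all 22 genes, and the changes run from 0.71 in Unc-115b to -0.33 in wash.

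Among 44 tubulins, dynein subunits and microtubule-associated proteins, 3 were called higher and 36 had a log2 change above 0. By library, the class median lay 0.07, 0.08 and 0.05 from the OreR mean in CR32027-IR2 and -0.04, -0.02 and 0.04 in OreR. The main alpha-tubulin gene alphaTub84B averaged 2247 ± 50.3 RPKM in CR32027-IR2 and 1849 ± 47.9 RPKM in OreR (SD, n = 3 each; log2 change 0.28, limma, adjusted p = 0.0102, and 0.058 without OreR replicate 2). Of 19 kinesins, Khc, the heavy chain of conventional kinesin, had 54.2, 52.9 and 54.5 RPKM in CR32027-IR2 against 40.2, 39.8 and 43.1 RPKM in OreR and was called in every leave-out (log2 change 0.39 ± 0.04, limma, adjusted p = 0.00265). Klp54D went the other way. It had 0.0044 RPKM in CR32027-IR2 replicate 1 and was listed at 0 in the other 2 CR32027-IR2 libraries, against 2.30, 2.23 and 1.75 RPKM in OreR.

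At the cell surface, 2 of 31 integrin, tetraspanin and matrix adhesion genes were higher and 4 lower. Pax (paxillin, an adaptor at integrin adhesions) averaged 3.52 ± 0.116 RPKM in CR32027-IR2 and 2.42 ± 0.0257 RPKM in OreR (log2 change 0.40 ± 0.06, limma, adjusted p = 0.00843). Tig (tiggrin, an integrin ligand of the matrix) averaged 1.83 ± 0.198 RPKM in CR32027-IR2 and 0.526 ± 0.146 RPKM in OreR. The integrin alpha subunit gene ItgaPS5 had 2.61, 2.43 and 2.15 RPKM in CR32027-IR2 against 4.51, 5.50 and 5.15 RPKM in OreR, a log2 change of -0.83 ± 0.09 (limma, adjusted p = 0.00194). These 3 genes were called in every leave-out, and their groups did not overlap. The beta subunit gene mys (0.22), the talin gene rhea (0.24) and the adhesion adaptor gene Ilk (0.10) were not called.

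ESCRT complexes sort ubiquitinated receptors into the lumen of endosomes and pinch off membranes in other settings, including the end of cytokinesis. Of 20 tested members, 11 were called higher and 0 lower, and the class median was 0.27. Both genes of ESCRT-0, which recognises the cargo, were higher. Hrs had 19.7, 19.0 and 19.5 RPKM in CR32027-IR2 against 15.3, 15.6 and 16.3 RPKM in OreR (log2 change 0.29 ± 0.04, limma, adjusted p = 0.00914). Its partner Stam averaged 24.1 ± 0.659 RPKM in CR32027-IR2 and 19.9 ± 0.898 RPKM in OreR. Stam had an adjusted p of 0.0204, and above 0.05 without CR32027-IR2 replicate 1 (0.0688), 2 (0.0711) or 3 (0.0557) or OreR replicate 1 (0.0557; all limma).

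ESCRT-III, the filament that constricts the membrane, held the largest changes. CHMP2B had 22.3, 22.6 and 22.0 RPKM in CR32027-IR2 and 13.6, 12 and 15 RPKM in OreR (log2 change 0.69 ± 0.07, limma, adjusted p = 0.00221). Ist1 had 41.5, 40.7 and 38.4 RPKM in CR32027-IR2 and 29.3, 29.8 and 32.1 RPKM in OreR (0.39 ± 0.05, adjusted p = 0.00516). Vps60 had 39.7, 41.1 and 41.1 RPKM in CR32027-IR2 and 30.3, 32.0 and 30.6 RPKM in OreR (0.38 ± 0.04, adjusted p = 0.00211). Chmp1 (0.33), Vps2 (0.32) and shrb, the Snf7 subunit (0.31), were also higher, and no CR32027-IR2 library of these 6 genes overlapped an OreR library. Of the 6, shrb alone lost its call with 1 library left out (adjusted p = 0.0569 without CR32027-IR2 replicate 2, limma). The remaining ESCRT-III genes Vps24 (0.27) and Vps20 (0.25) were not called.

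Of the ESCRT-I genes, Mvb12 was called (0.18), whereas TSG101 (0.21), Vps28 (0.22) and Vps37B (-0.05) were not. Mvb12 had an adjusted p of 0.0453 (limma), and did not pass without any 1 of the 6 libraries, at 0.0504 to 0.139. Of the ESCRT-II genes Vps25 (0.19), lsn (-0.02) and Vps36 (-0.03), 0 were called, and Vps25 alone of these 3 had an unadjusted p under 0.05 (limma). ALiX, a bridge between cargo and ESCRT-III, was higher (50.6, 49.5 and 49.7 RPKM in CR32027-IR2 against 39.8, 39.7 and 43.1 RPKM in OreR; 0.29 ± 0.04, limma, adjusted p = 0.0109). Vta1, a cofactor of the ATPase that disassembles ESCRT-III, was called (0.22) but in no leave-out (adjusted p = 0.0517 to 0.116, limma). Hrs, ALiX, Stam, Vta1 and Mvb12 fall outside the rule for named genes and were named after their values were seen. With single libraries left out, the count of higher members was 7 without CR32027-IR2 replicate 2 and up to 11. Of 50 genes for clathrin endocytosis, HOPS tethering and retromer, 2 were higher and 1 lower, with a median of 0.01. Of 67 COPI, COPII and SNARE genes, only p24-2 was called.

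**Figure D4:**
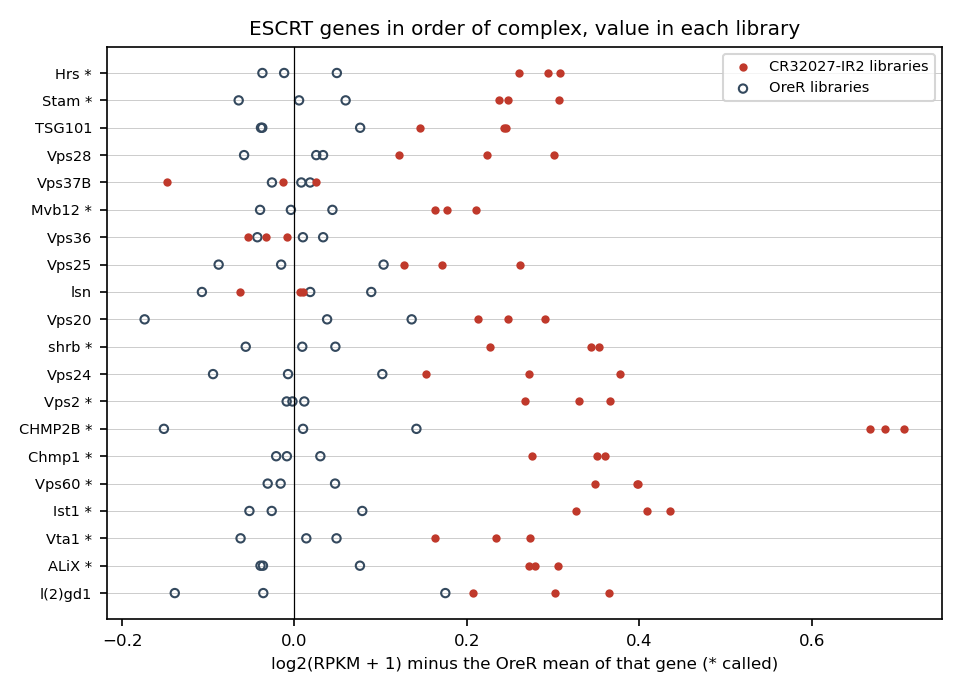
Value of each of the 20 ESCRT genes in each library, as log2(RPKM + 1) minus the OreR mean of that gene, ordered from ESCRT-0 at the top to associated proteins at the bottom. Filled points (CR32027-IR2) lie to the right of open circles (OreR) in all 11 called genes, and the groups mix in Vps37B, Vps36 and lsn.

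Of 31 tested chaperones and co-chaperones of the heat shock families, 12 were called higher and 0 lower, with a median of 0.26; 3 were higher when all 9 libraries of the series were fitted. Cytosolic Hsp70 genes held the largest changes, and their copies are near-identical, so reads may be split between them and single copies are uncertain. Of the 12 called genes, 6 are such copies (Hsp70Aa, Hsp70Ab, Hsp70Ba, Hsp70Bb, Hsp70Bbb and Hsp70Bc). Hsp70Bb had 163, 140.3 and 129 RPKM in CR32027-IR2 against 24.2, 27.4 and 24.8 RPKM in OreR, a log2 change of 2.45 ± 0.09 (limma, adjusted p = 2.75e-05). Hsp68, a related stress-inducible gene, had 143, 110.2 and 141 RPKM in CR32027-IR2 and 10.2, 30.9 and 21.3 RPKM in OreR (2.72 ± 0.34, adjusted p = 0.00424). OreR replicate 1 was the lowest library for Hsp68 and for each of the 6 Hsp70 copies, and no CR32027-IR2 library of these genes overlapped OreR. DnaJ-1, an Hsp40 partner of Hsp70 that was named after its value was seen, averaged 192 ± 30.8 RPKM in CR32027-IR2 and 108 ± 22.8 RPKM in OreR (0.83 ± 0.17, limma, adjusted p = 0.0301). Its adjusted p was 0.108 without CR32027-IR2 replicate 2, 0.0958 without CR32027-IR2 replicate 3, and 0.0714 or 0.0738 with OreR replicate 1 or 3 omitted. OreR replicate 1 was the lowest library for DnaJ-1 too.

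Hsp27 averaged 1951 ± 82.7 RPKM in CR32027-IR2 and 1935 ± 59.1 RPKM in OreR, and Hsp23 averaged 2497 ± 212 RPKM in CR32027-IR2 and 2269 ± 218 RPKM in OreR; neither was called. Hsp26 varied more between libraries, with 1302, 1076 and 943 RPKM in CR32027-IR2 against 436, 738 and 934 RPKM in OreR, and was not called (adjusted p = 0.165). The mitochondrial chaperones Hsp60A (-0.00) and Hsc70-5 (0.04) and the endoplasmic reticulum chaperone Hsc70-3 (0.19) were not called. Of 13 subunits of the CCT chaperonin, which folds actin and tubulin, and of its partner prefoldin, 12 had a log2 change above 0 and 3 were called (CCT5, CCT1 and CCT3, 0.17 to 0.21). With single libraries left out, 0 or 1 of the 13 were called. CCT5 averaged 218 ± 2.59 RPKM in CR32027-IR2 and 188 ± 3.92 RPKM in OreR, and lost its call without CR32027-IR2 replicate 1 (0.0597), CR32027-IR2 replicate 2 (0.0665) or OreR replicate 2 (0.0561; limma).

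Of 37 tested proteasome genes, 35 had a log2 change above 0, the median was 0.10, and 3 were called. By library, the class median lay 0.14, 0.13 and 0.03 from the OreR mean in CR32027-IR2 and -0.02, -0.01 and 0.03 in OreR. CR32027-IR2 replicate 3 thus lay close to OreR replicate 3. Pomp, the assembly factor of the core particle, had 169, 166 and 146 RPKM in CR32027-IR2 against 90.3, 93.0 and 91.2 RPKM in OreR (log2 change 0.80 ± 0.06, limma, adjusted p = 0.000344). The other 2 called genes, Prosalpha1 (0.55) and Prosalpha1R (0.53), are near-identical copies of 1 subunit gene with near-equal values, so they count as 1 uncertain observation. The remaining subunits had log2 changes of up to 0.20. Of 49 ubiquitin-conjugating enzymes, cullins and ligases, 0 were called, with 3 at an unadjusted p under 0.05 (limma), beside 23.1% of all genes.

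Detoxification genes moved in both directions. Glutathione transferases, which conjugate glutathione to reactive compounds, had 6 lower and 1 higher member of 24 tested, with a median of -0.15. With all 9 libraries fitted, 3 were lower. GstE1 had 10.2, 12.4 and 11 RPKM in CR32027-IR2 against 17.9, 19.9 and 16 RPKM in OreR, a log2 change of -0.63 ± 0.09 (limma, adjusted p = 0.00923). GstZ1 had 13.1, 11.4 and 12.9 RPKM in CR32027-IR2 against 17.0, 16.6 and 15.9 RPKM in OreR (-0.38 ± 0.06, adjusted p = 0.0123). GstE11 had 83.4, 84.9 and 82.5 RPKM in CR32027-IR2 against 101, 96.7 and 102 RPKM in OreR (-0.25 ± 0.04, adjusted p = 0.00885). These 3 were called in every leave-out, whereas GstD9 (-0.51), GstT4 (-0.38) and GstS1 (-0.22) were not. GstS1, which was named after its value was seen, had an adjusted p of 0.0558 without CR32027-IR2 replicate 3, and GstT4 had 0.0561 without CR32027-IR2 replicate 2 and 0.0544 without OreR replicate 2 (limma). GstD9 passed only without OreR replicate 1. The most abundant member, GstD1, was higher, at 827 ± 22.8 RPKM in CR32027-IR2 and 621 ± 33.2 RPKM in OreR. GstD1 made up a large part of the summed level of the class, and that sum was higher in CR32027-IR2 (1624 to 1693 RPKM) than in OreR (1484 to 1553 RPKM).

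Other redox and metal genes were changed singly. Zw, glucose-6-phosphate dehydrogenase, which supplies NADPH at the entry to the pentose phosphate pathway, had 9.07, 9.07 and 8.44 RPKM in CR32027-IR2 against 5.77, 6.06 and 5.29 RPKM in OreR (log2 change 0.56 ± 0.06, limma, adjusted p = 0.00237). MtnA, a metallothionein that binds copper and zinc, had 9.79, 8.52 and 9.27 RPKM in CR32027-IR2 against 3.30, 2.89 and 2.11 RPKM in OreR (1.45 ± 0.12, adjusted p = 0.000632). The transferrin gene Tsf3 averaged 1.68 ± 0.0608 RPKM in CR32027-IR2 and 0.711 ± 0.019 RPKM in OreR. These 3 genes were called in every leave-out and their groups did not overlap. The next enzyme of the pathway, Pgd (0.04), the superoxide dismutase Sod1 (0.00) and the ferritin subunits Fer1HCH (-0.04) and Fer2LCH (0.07) were not called. The catalase gene Cat was lower, at 63.5 ± 3.5 RPKM in CR32027-IR2 and 80.9 ± 5.4 RPKM in OreR (-0.34 ± 0.06, limma, adjusted p = 0.0207). Its adjusted p was 0.0724 without CR32027-IR2 replicate 2 and 0.0588 without CR32027-IR2 replicate 3.

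Of 64 respiratory chain and ATP synthase genes, 3 were called higher and 1 lower. Of 20 fatty acid oxidation genes 0 were called, with 3 at an unadjusted p under 0.05 (limma), beside 23.1% of all genes. The 3 called genes among 14 of serine, glycine and one-carbon metabolism were all lower. The largest of these changes was in Cth, cystathionine gamma-lyase, at 47.5 ± 0.786 RPKM in CR32027-IR2 and 59.8 ± 4.18 RPKM in OreR (-0.32 ± 0.05, limma, adjusted p = 0.0157). Its adjusted p was 0.0692 without CR32027-IR2 replicate 2 and 0.0505 without CR32027-IR2 replicate 3.

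Secreted factors and cell surface proteins that shape extracellular signals included some of the clearest single changes. ImpL2, a secreted protein that binds insulin-like peptides, had 6.02, 6.65 and 7.14 RPKM in CR32027-IR2 against 2.02, 1.52 and 1.63 RPKM in OreR (log2 change 1.48 ± 0.09, limma, adjusted p = 0.000168). The lipid phosphate phosphatase genes wun2 and wun, whose products dephosphorylate extracellular phospholipids and guide germ cells in the embryo, were both higher. wun2 had 5.52, 5.21 and 5.73 RPKM in CR32027-IR2 against 1.77, 1.27 and 1.45 RPKM in OreR (1.38 ± 0.09, adjusted p = 0.000178). wun had 4.59, 4.44 and 4.21 RPKM in CR32027-IR2 against 2.90, 2.44 and 2.80 RPKM in OreR (0.55 ± 0.07, adjusted p = 0.00501). All 3 were called in every leave-out.

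Heparan sulfate proteoglycans carry morphogens across the disc. Both glypican genes were higher: dally averaged 7.94 ± 0.222 RPKM in CR32027-IR2 and 5.48 ± 0.0253 RPKM in OreR (0.46 ± 0.05, limma, adjusted p = 0.00194), and dlp averaged 6 ± 0.223 RPKM in CR32027-IR2 and 4.37 ± 0.186 RPKM in OreR (0.38 ± 0.06, adjusted p = 0.00868). Sulf1, a secreted enzyme that removes sulfate groups from heparan sulfate, had 7.48, 6.80 and 7.26 RPKM in CR32027-IR2 against 3.79, 3.38 and 4.04 RPKM in OreR (0.79 ± 0.07, adjusted p = 0.00089). These 3 passed in every leave-out. The syndecan gene Sdc (-0.16) was not called. Among the enzymes that build the chains, sotv (-0.35) and beta4GalT7 (-0.26) were lower, each in the full fit but not in 5 of the 6 leave-outs; sotv had adjusted p-values (limma) of 0.0622, 0.0946 and 0.0639 without CR32027-IR2 replicates 1, 2 and 3, 0.0693 without OreR replicate 1 and 0.0596 without OreR replicate 3. beta4GalT7 kept its call only without CR32027-IR2 replicate 2.

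Protease inhibitors split. Of 13 serpins and Kunitz or Kazal inhibitors, 4 were higher and 1 lower. Spn55B had 21.7, 22.0 and 20.3 RPKM in CR32027-IR2 against 12.7, 11.7 and 14.2 RPKM in OreR (log2 change 0.69 ± 0.07, limma, adjusted p = 0.00196). Spn47C had 12.5, 11.7 and 11.6 RPKM in CR32027-IR2 against 18.5, 20.4 and 21.1 RPKM in OreR (-0.70 ± 0.06, adjusted p = 0.000733). The 2 serpin genes thus changed by similar amounts in opposite directions, each in every leave-out. Of 12 metalloproteases and their inhibitors only Mmp1, a secreted matrix metalloprotease, was called, at 15.4 ± 1.00 RPKM in CR32027-IR2 and 4.57 ± 0.171 RPKM in OreR.

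Signalling genes inside the cell showed a few separate changes. Ets21C, an ETS transcription factor, had 1.92, 1.77 and 1.97 RPKM in CR32027-IR2 against 0.166, 0.209 and 0.230 RPKM in OreR (log2 change 1.26 ± 0.08, limma, adjusted p = 0.000205), while the other 4 ETS genes tested were not called. Of 13 bZIP factors, 3 were higher. Jra, the Jun homologue, averaged 51.3 ± 1.82 RPKM in CR32027-IR2 and 35.3 ± 2.98 RPKM in OreR (0.53 ± 0.06, adjusted p = 0.00344). Its partner kay, the Fos homologue, averaged 4.72 ± 0.231 RPKM in CR32027-IR2 and 3.40 ± 0.154 RPKM in OreR (0.38 ± 0.06, adjusted p = 0.013, and 0.0514 without OreR replicate 2). Xrp1 (0.42) did not pass without CR32027-IR2 replicate 1 (0.0716), CR32027-IR2 replicate 2 (0.0927) or CR32027-IR2 replicate 3 (0.0505). The bZIP factors of the unfolded protein and amino acid responses, Xbp1 (0.19) and crc (0.14), were not called.

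Of 33 protein phosphatase genes, 4 were higher and 1 was lower, against 3.79% and 3.53% of all genes. The lower one, Pp1-87B, the main catalytic subunit of protein phosphatase 1, had 169.5, 173 and 163 RPKM in CR32027-IR2 against 262, 269 and 279 RPKM in OreR (log2 change -0.68 ± 0.04, limma, adjusted p = 0.000168). Its paralogs flw (-0.00) and Pp1alpha-96A (-0.11) were not called. The JNK phosphatase gene puc averaged 4.06 ± 0.14 RPKM in CR32027-IR2 and 2.06 ± 0.368 RPKM in OreR (0.73 ± 0.09, adjusted p = 0.00446), and the tyrosine phosphatase gene Ptpmeg2 averaged 4.07 ± 0.141 RPKM in CR32027-IR2 and 2.55 ± 0.0882 RPKM in OreR (0.51 ± 0.06, adjusted p = 0.00297). Among receptors, Cirl, the latrophilin homologue, had 101, 98.8 and 101 RPKM in CR32027-IR2 against 139, 139.7 and 143 RPKM in OreR (-0.48 ± 0.03, adjusted p = 0.000321). grnd, a TNF receptor that acts upstream of JNK, averaged 74.7 ± 1.04 RPKM in CR32027-IR2 and 56.3 ± 1.2 RPKM in OreR (0.40 ± 0.04, adjusted p = 0.00089). These 5 genes were called in every leave-out, with no overlap between groups.

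Apical matrix genes were called in both directions. Among 24 enzymes of the chitin matrix and of tanning, 5 were higher and 0 lower, and among 17 structural cuticle proteins 3 were higher and 4 lower. The chitin deacetylase gene serp had 39.2, 35.6 and 34.3 RPKM in CR32027-IR2 against 14.9, 15.7 and 19.3 RPKM in OreR (log2 change 1.09 ± 0.10, limma, adjusted p = 0.00089). yellow-b had 7.13, 7.15 and 6.11 RPKM in CR32027-IR2 against 2.96, 2.92 and 2.83 RPKM in OreR (1.00 ± 0.07, adjusted p = 0.000295). Of the structural proteins, TwdlE, of the Tweedle family, had 32.3, 27.7 and 28.3 RPKM in CR32027-IR2 against 6.37, 4.49 and 4.63 RPKM in OreR (2.31 ± 0.12, adjusted p = 9.42e-05). Edg78E (1.42) and Cpr64Ac (1.30) were also higher, and all 5 were called in every leave-out. The 4 lower proteins were Vajk2 (-0.99), Cpr51A (-0.80), Cpr66D (-0.67) and Cpr57A (-0.49), and none was called in every leave-out. Cpr66D had an adjusted p of 0.0946 without CR32027-IR2 replicate 2 and 0.0837 without CR32027-IR2 replicate 3 (limma). Cpr51A passed only without OreR replicate 3, and Cpr57A only without CR32027-IR2 replicate 3 or OreR replicate 3. Vajk2 had 20.7, 29.2 and 23.9 RPKM in CR32027-IR2 against 33.9, 61.3 and 57.4 RPKM in OreR (adjusted p = 0.0447), and passed only in the leave-out of OreR replicate 1. The chitin synthase gene kkv (0.05) and the chitin organiser knk (-0.08) were not called, and the count of higher chitin and tanning genes was 3 without CR32027-IR2 replicate 2, CR32027-IR2 replicate 3, OreR replicate 1 or OreR replicate 2. Another 112 cuticle protein genes in the table were below the level limit.

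Called snoRNAs and long noncoding RNAs were all lower in CR32027-IR2. Small nucleolar RNAs (snoRNAs) guide chemical modification of ribosomal RNA, and most in this table lie within introns of host genes. Of 129 tested snoRNAs 16 were lower and 0 higher, and the class median was -0.47. As medians over the 129, the 3 CR32027-IR2 libraries lay -0.26, -0.47 and -0.69 from the OreR mean on the log2 scale, and the 3 OreR libraries lay -0.03, 0.13 and -0.07 from it. The CR32027-IR2 libraries were thus all below OreR but spread widely among themselves, and the lowest was replicate 3, with 25070344 reads. OreR replicate 1, with 25435055 reads, lay at -0.03. The part of read depth in these values was not tested. Single members rest on few reads. snoRNA:Me28S-G1083a had 4.24, 3.22 and 3.80 RPKM in CR32027-IR2 against 15.4, 14.8 and 11.4 RPKM in OreR, from 29 against 100 reads (log2 change -1.64 ± 0.12, limma, adjusted p = 0.00036). snoRNA:Me28S-C788b rested on 3 against 28 reads, and snoRNA:U31:54Ed was listed at 0 in all CR32027-IR2 libraries against 1.76, 4.37 and 1.74 RPKM in OreR. The count of lower snoRNAs was 9 without CR32027-IR2 replicate 2. These libraries were selected for poly(A) RNA, per the labels, and mature snoRNAs have no poly(A) tail. The part of this selection in the snoRNA values was not tested either.

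Host genes are counted apart from their snoRNAs. Of the 129 snoRNAs, 120 lie inside a longer gene on the same strand, as do 14 of the 16 lower ones. Their 14 tested hosts, which include ribosomal protein genes such as RpS16 and RpL28, had log2 changes of -0.26 to 0.22, and 0 of them were called. Among all 44 tested host genes the median log2 change was -0.07, with 1 called higher and 2 lower. Of 55 long noncoding and antisense RNAs, 9 were lower and 0 higher, CR32027 among the 9, and the median was -0.17. lncRNA:CR43907 had 0.219, 0.338 and 0.718 RPKM in CR32027-IR2 against 2.04, 1.90 and 2.21 RPKM in OreR, from 18 against 90 reads (-1.11 ± 0.14, limma, adjusted p = 0.00361). asRNA:CR43426 had 0.801, 0.758 and 0.687 RPKM in CR32027-IR2 against 1.55, 2.35 and 2.52 RPKM in OreR (-0.83 ± 0.13, adjusted p = 0.0114). Both were called in every leave-out.

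**Figure D5:**
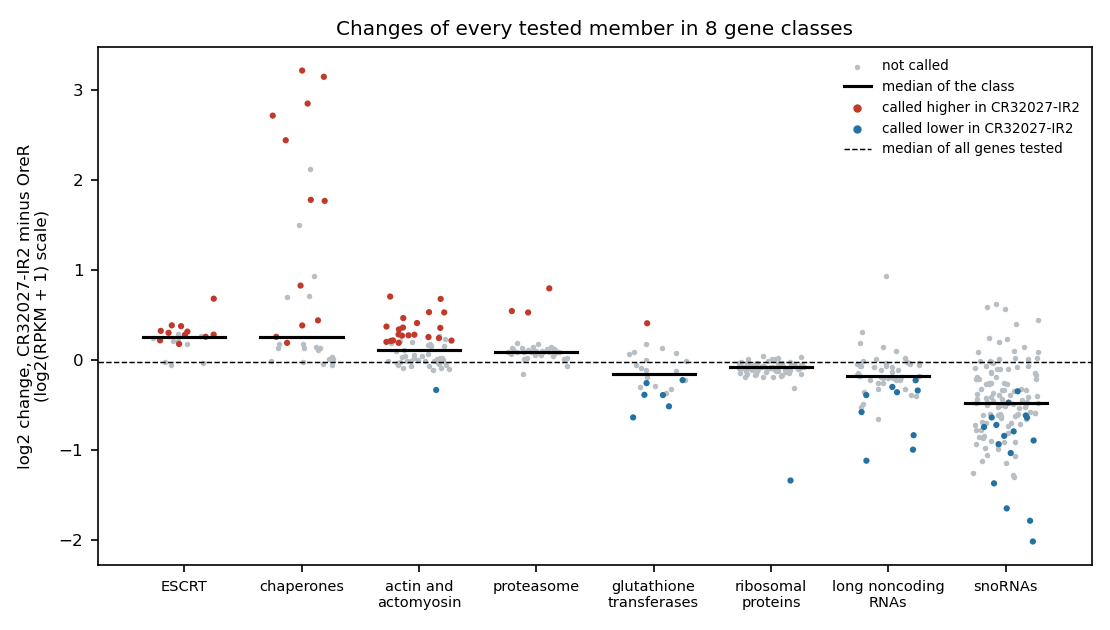
Log2 change (CR32027-IR2 minus OreR, log2(RPKM + 1) scale) of every tested member of 8 classes, each point a gene, with the class median as a bar and the median of all genes (-0.02) dashed. ESCRT (median 0.27), chaperone (0.26) and actin genes (0.12) lie above the dashed line, and snoRNAs (-0.47) below it.

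Few genes of the gene expression machinery were called. Across 13 classes with 562 tested genes, from RNA polymerase to ribosomes and DNA repair, 5 were called higher and 11 lower. DNA repair held 5 of the 11 lower calls among its 54 tested genes, and 1 higher call; between 0 and 3 of its genes were lower with single libraries left out. Of 27 chromatin remodellers, 29 Mediator subunits, 30 RNA polymerase subunits, 34 general transcription factors and 44 nuclear pore and transport genes, 0 were called. At an unadjusted p under 0.05 (limma) these classes had 0, 2, 3, 6 and 5 genes, beside 23.1% of all genes. Cytoplasmic ribosomal protein genes had a median of -0.08, and 76 of the 82 tested lay at or below 0. By library, their median lay -0.11, -0.08 and -0.03 from the OreR mean in CR32027-IR2 and 0.07, 0.01 and -0.08 in OreR. The groups thus overlapped at class level. The only ribosomal protein gene of the 82 called was RpS19b, a low-level paralog of RpS19a, with 1.84, 1.64 and 1.39 RPKM in CR32027-IR2 against 9.61, 4.42 and 3.99 RPKM in OreR. Its adjusted p of 0.0296 was 0.0627, 0.0977 and 0.0941 without CR32027-IR2 replicates 1, 2 and 3 (limma). Of 73 mitochondrial ribosomal protein genes 1 was higher and 2 lower. The higher gene, mRpL37, had 37.3, 38 and 36.0 RPKM in CR32027-IR2 against 25.1, 26.9 and 25.8 RPKM in OreR (0.50 ± 0.04, limma, adjusted p = 0.000777) and was called in every leave-out.

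Several of the largest single changes were near on-off differences and fell in no class. CG43182 had 27.7, 36.0 and 35.8 RPKM in CR32027-IR2 and was listed at 0 throughout OreR. Gr64a, a gustatory receptor gene for sugars, had 4.29, 5 and 5.86 RPKM in CR32027-IR2 and was likewise listed at 0 throughout OreR. Its neighbours moved with it. Gr64c had 2.25, 2.32 and 2.91 RPKM in CR32027-IR2 and at most 0.0229 RPKM in OreR, and CG11594, next to Gr64a on the opposite strand, had 4.34, 3.56 and 4.99 RPKM in CR32027-IR2 and at most 0.0259 RPKM in OreR. Gr64d and Gr64e, whose annotated spans overlap each other, were named after their values were seen. Both were called, both were listed at 0 in OreR, and both passed the level limit only through CR32027-IR2. These genes occupy 1 stretch of chromosome arm 3L, and all were called in every leave-out. Whether they are separate transcripts cannot be told apart from gene-level values.

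The largest falls were of the same kind. The gene FBgn0010549, which encodes an ABC transporter, had 0.616, 0.779 and 0.951 RPKM in CR32027-IR2 against 12.4, 27.5 and 8.48 RPKM in OreR (log2 change -3.11 ± 0.36, limma, adjusted p = 0.00287). CG14868 had 0.129, 0.0635 and 0.243 RPKM in CR32027-IR2 against 7.44, 8.26 and 6.45 RPKM in OreR (-2.87 ± 0.10, adjusted p = 2.75e-05). CG6912 averaged 0.0979 ± 0.0317 RPKM in CR32027-IR2 and 3.97 ± 0.806 RPKM in OreR. OreR replicate 2 stood well above the other OreR libraries for the ABC transporter gene, whereas the OreR libraries agreed closely for CG14868. Graded changes were also among the largest: CG17124 had 7.18, 6.4 and 5.83 RPKM in CR32027-IR2 against 1.08, 1.02 and 1.16 RPKM in OreR, and CG31673 had 3.03, 3.60 and 3.53 RPKM in CR32027-IR2 against 11.6, 11.3 and 10.7 RPKM in OreR. PPO2, a prophenoloxidase of crystal cells, a blood cell type, had 2.73, 2.20 and 1.5 RPKM in CR32027-IR2 against 5.89, 17.7 and 12.4 RPKM in OreR. PPO2 had an adjusted p of 0.0183, and of 0.0663 without CR32027-IR2 replicate 2, 0.0629 without CR32027-IR2 replicate 3 and 0.053 without OreR replicate 3 (limma).

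Markers of other cells of the dissected piece were measured beside these results. Neuron and glia markers (3 of 12 tested, 2 higher) summed to 40.4 to 44.1 RPKM in CR32027-IR2 and 30.2 to 33 RPKM in OreR. The 2 higher genes were moody, a receptor of glia that form the blood-brain barrier, and nrv2. Most of these sums was nrv2, at 30.9 to 34.3 RPKM in CR32027-IR2 and 25.3 to 27.6 RPKM in OreR. The third tested gene, elav, had 3.27 to 3.51 RPKM in CR32027-IR2 and 3.40 to 3.70 RPKM in OreR. The listed genes repo and gcm had at most 0.0635 RPKM in any of the 6 libraries. moody had 6.80, 5.97 and 5.67 RPKM in CR32027-IR2 against 0.924, 1.37 and 1.5 RPKM in OreR (log2 change 1.66 ± 0.11, limma, adjusted p = 0.000265). Tracheal markers (8 of 11 tested, 3 higher and 1 lower) summed to 313 to 343 RPKM in CR32027-IR2 and 228 to 270.3 RPKM in OreR. The 3 higher genes were tnc, a matrix protein, and the chitin deacetylase genes serp and verm, which the chitin class also holds, and Osi18 was listed at 0. The lower one was trh, the tracheal transcription factor, with 3.77, 3.57 and 3.62 RPKM in CR32027-IR2 against 5, 5.12 and 4.48 RPKM in OreR. Its adjusted p of 0.0258 was above 0.05 in each leave-out but that of OreR replicate 3, at 0.0589 to 0.102 (limma). Hemocyte markers (6 of 12 tested, PPO2 lower) summed to 58.9 to 74.5 RPKM in CR32027-IR2 and 65.6 to 76.0 RPKM in OreR. A large part of these sums was Ppn, at 42.7 to 52.9 RPKM in CR32027-IR2 and 38.4 to 43.0 RPKM in OreR. The median log2 change of the 6 tested genes was -0.29, and 1 of them lay above 0. At an unadjusted p under 0.05 (limma), 1 hemocyte gene was higher and 2 were lower, beside 23.1% of all genes in either direction. Muscle precursor markers (4 of 16 tested, 0 called) summed to 19.2 to 23.2 RPKM in CR32027-IR2 and 18.7 to 20.5 RPKM in OreR. Notum and hinge markers (10 of 14 tested, 0 called) summed to 98.1 to 102 RPKM in CR32027-IR2 and 83.1 to 99.3 RPKM in OreR. Peripodial markers (2 of 4 tested, 0 called) summed to 12.2 to 13.4 RPKM in CR32027-IR2 and 13.7 to 16 RPKM in OreR. At an unadjusted p under 0.05 (limma) there were 2 muscle, 0 notum and hinge and 1 peripodial genes, beside the same 23.1%. Fat body markers (1 of 10 tested) summed to 1.10 to 13 RPKM in CR32027-IR2 and 0.991 to 1.33 RPKM in OreR. The highest sum was that of CR32027-IR2 replicate 1, which had 5.27 RPKM of Yp1 and 6.99 RPKM of Yp2, yolk protein genes of the female fat body. The part of these cells in the class results was not tested.

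Called genes were spread over the chromosomes. By arm, 8.97% of tested genes were called on 2R, 8.49% on 3L, 7.66% on 3R, 6.56% on 2L, 5.08% on the fourth chromosome and 5.05% on X, beside 7.33% over all. Protein-coding genes had 263 higher and 228 lower calls among 6767 (7.26%), close to the share of all genes. Of 347 tested genes that have no name in the annotation used here, 20 were called. Values within 2% of another gene's in every library, as for near-identical copies, were found for 20 of the 545 called genes. Many of the called genes given above overlap an annotated gene on the opposite strand, among them CHMP2B, Hrs, Ist1, ALiX, Pomp, Mmp1, Ets21C, Jra, kay, Sulf1, dally, TwdlE, yellow-b, GstE1, Hsp68 and moody, and the strand setting of the counting is not known.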

How the data were processed

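Poly(A) RNA from dissected wing pouches was made into stranded libraries, per the labels' protocols. The authors deposited RPKM values per gene, one column per library, and TopHat2, CASAVA 1.8.2 and the genome build dm3 are listed in the submitters' processing notes. For the counter, the strand setting and the annotation, the sources used here give nothing. Low values step by whole reads, from which the depth per library was read, and 51.6% to 53.7% of values came out whole within 0.01, so no count test was run.

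Names, strands and overlaps came from the BDGP6 annotation, which held 15002 of the 15682 IDs. Genes averaging 1 RPKM or more across these 6 libraries were fitted as log2(RPKM + 1) with limma 3.58.1 in R 4.3.3 (intensity trend, 4 residual degrees of freedom), and p-values were adjusted over all 7440. Fold changes are on that scale, which understates the change of low genes. Class counts were made with pandas 2.3.3 and numpy 2.4.6, permutation with scipy 1.17.1 and figures with matplotlib 3.10.9, all in Python 3.11.15. On simulated data for this comparison (7440 genes), 80.6% of genes with a log2 change of 0.5 were called, 100% of those with 1 or 2, and 0.138% of 7240 unchanged genes. Noise was drawn independently for each gene with the spread of these libraries, which may be technical. Recovery between separate crosses may therefore be lower.

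The genes and lists were chosen with earlier results of these data known, and 18 of the 77 classes were drawn up after values had been seen. The text names CR32027, the 15 largest rises and 15 largest falls among called genes without overlap between groups, and up to 6 called members of each class by size of change. Other called genes were named after their values were seen, and members that were not called are given as values. Alternatives covered the pseudocount, the filter, the scaling, the trend, weights, fitting all 9 libraries, blocking on replicate number, stricter thresholds and omitting single libraries. Of the 77 classes, 1 class is not reported here.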

Additional observations from a re-analysis of the deposited data

How the results depend on the processing

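The 545 calls (282 higher, 263 lower) became 203 (141 and 62) at an adjusted p under 0.01 and 70 (49 and 21) with a change of at least 2-fold. Leaving out single libraries gave 256 to 482 calls, with 155 to 272 higher and 101 to 210 lower. Lower calls were 165 with no filter and 170 with all 9 libraries fitted. Deviations from the genotype means correlated at -0.0352, 0.129 and -0.117 between libraries with the same replicate number. Between libraries with different numbers the correlations were -0.133 to 0.166. With 3 libraries a genotype, this check cannot exclude a shared batch. The main fit was unpaired. The fit with a replicate block gave 326 calls (184 and 142), and 10 higher actin, 7 ESCRT and 3 chitin and tanning genes. Leave-outs gave 11 to 20 higher actin, 7 to 11 ESCRT and 3 to 6 chitin and tanning genes, and 9 to 21 lower snoRNAs. Fitting all 9 libraries gave 3 higher chaperones, 3 lower glutathione transferases and 3 higher chitin and tanning genes. A minimum of 5 RPKM left 2 higher chitin and tanning genes and 10 lower snoRNAs. The CR32027 level changed by -0.991 on the log2 scale with no filter (adjusted p = 0.0713, limma) and -1.0461 after quantile normalization (adjusted p = 0.0582, limma), and -1.1048 to -0.7866 in leave-outs. The causes were not tested. Of 201 named genes, the call was lost by 75 with no filter, 57 with all 9 libraries fitted, 81 with a replicate block and 44 to 95 in leave-outs. Direction changed in 0 of them, which in leave-outs follows from groups that do not overlap. Some noncoding RNAs rest on fewer than 30 reads a genotype.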
